A study of Homo sapiens with 4 samples.

Results

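The 10 genes described here are the FOXO transcription factors FOXO1, FOXO3 and FOXO4 and 7 genes known as direct FOXO targets, namely IRS2, TXNIP, SESN1, SESN3, CITED2, KLF6 and CCNG2. They were taken by name from the table of 58735 genes and matched by Ensembl identifier to the table of reads, and all 10 were found. The RNA came from MHCC-97H, an established metastatic hepatocellular carcinoma (HCC) line, labelled as wild type and as a single batch. The cells received PBS for 24 h, or 2 μg of migrasomes (Migs), the vesicles that migrating cells leave behind on their retraction fibres, for the same time. The Migs came from MHCC-97H cells in normoxia (normo-Migs), from such cells under hypoxia (hypo-Migs), or from a CD147-knockout line made from them, also under hypoxia (CD147KO-Migs). For normo-Migs the labels and the supplementary methods give normoxia, whereas the main methods of the study give hypoxia, and the labels were followed here. Each condition had 1 library, 4 in all. The knockout concerns the cells that released the Migs and not the cells sequenced, so BSG, the gene of CD147, cannot check a label here. Its level was 1421 CPM (reads scaled to the same total on genes in every library) with PBS. With Migs it was 985 (normo-Migs), 921 (hypo-Migs) and 971 (CD147KO-Migs). The labels name both high- and low-glucose medium, and which medium each sequenced culture had is not given in the sources used here.

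FOXO proteins are forkhead transcription factors that act downstream of insulin and growth factor signaling. When PI3K is active, AKT phosphorylates them, 14-3-3 proteins bind them, and they leave the nucleus, so that their target genes lose activation. The targets restrain the cell cycle, limit oxidative stress, adjust glucose use and feed back on insulin signaling. This control acts on the protein, so RNA levels of the factors do not measure their activity. The study examined PI3K/AKT signaling in HCC cells given these Migs, and FOXO targets are RNAs that this pathway is known to control.

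The reads on genes ranged from 33882496 to 40285223 across the libraries. As each condition had a single library, how far cultures of 1 condition differ is unknown, and every comparison below is between libraries and not between conditions. Intervals are 95% and cover counting error only, since the reads carried no molecular identifiers and may repeat the same molecule. A gene was said to be past the fold when its log2 fold change after TMM scaling, a scaling that aligns the bulk of genes between libraries, was 1 or more in either direction. All 10 genes passed the filter of at least 10 reads in at least 1 library, which 19895 genes passed, and SESN3 had the lowest mean of the 10, at 199 reads.

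The library labelled PBS stood apart from the Mig libraries. It had 3 reads or fewer for 251 genes that had at least 100 reads in each of the other libraries, and the same count was 0 for each Mig library. Pearson's r of log2 CPM across genes was 0.942 or 0.943 between PBS and the Mig libraries and 0.996 or 0.997 among them, where genes are not independent replicates. Mitochondrial genes took 2.69% of the reads with PBS and 5.00% to 5.16% with Migs. Of 11 hepatocyte markers, ALB, TTR, APOB, APOC3 and AFP had 0 reads in all 4 libraries, and between 2 and 5 markers reached 10 reads per library. HNF4A had 134 to 246 reads per library and FGB 0 with PBS and 561 to 832 with Migs, and the list summed to a CPM of 4.75 with PBS and 21.1 to 28.9 with Migs. Epithelial markers summed to a CPM of 4612 with PBS and 5558 to 6663 with Migs, with CDH1 at 0 reads in PBS, while KRT19 went the other way, from 11287 reads with PBS to between 32 and 75 with Migs, and CLDN1 from a CPM of 62.1 to between 46.8 and 47.7. Mesenchymal markers summed to a CPM of 414 with PBS, where SPARC and LUM had 0 reads, and 1232 to 1312 with Migs. In that list CDH2 was lower with Migs (a CPM of 35.1 to 38.0, against 88.1 with PBS) and VIM stood at 288 with PBS and 259 to 282 with Migs, while SPARC (388 to 434 with Migs) and FN1 (16.2 with PBS and 399 to 469 with Migs) carried the sum. Endothelial markers summed to at most 5.54 CPM and leukocyte markers to at most 4.28 CPM in any library. The part of these library-wide differences in the differences between PBS and Migs below was not tested, and in bulk RNA fewer cells of a type and less RNA per cell cannot be told apart.

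Among the factors, FOXO4 was the gene past the fold between PBS and the Mig libraries. FOXO4 (ENSG00000184481), the X-linked member of the family, lies at X:71096197-71103535 on the plus strand of GRCh38. It had 208 reads with PBS, and 772 (normo-Migs), 972 (hypo-Migs) and 867 (CD147KO-Migs) with Migs. Its CPM with PBS was 6.14 (Wilson interval 5.36 to 7.03), compared with 22.3 (20.8 to 24.0) with normo-Migs, 24.1 (22.7 to 25.7) with hypo-Migs and 24.7 (23.2 to 26.4) with CD147KO-Migs. The intervals of the Mig libraries overlapped each other, and all lay above that of PBS. The log2 fold change against PBS was 1.90 with normo-Migs (exact interval 1.69 to 2.14), 2.00 with hypo-Migs (1.79 to 2.23) and 2.03 with CD147KO-Migs (1.82 to 2.26). In GENCODE release 29, no other gene overlaps FOXO4.

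FOXO1 (ENSG00000150907), which drives gluconeogenic genes in liver, was lower with Migs than with PBS, short of the fold. It lies at 13:40469953-40666597 on the minus strand. Its reads were 706 with PBS, and 519 (normo-Migs), 574 (hypo-Migs) and 444 (CD147KO-Migs) with Migs. The CPM was 20.8 (19.4 to 22.4) with PBS, above the Mig libraries at 15.0 (13.8 to 16.4), 14.2 (13.1 to 15.5) and 12.7 (11.6 to 13.9) in the order normo-Migs, hypo-Migs and CD147KO-Migs. Against PBS the log2 fold change ran from -0.42 (-0.59 to -0.26) with normo-Migs to -0.69 (-0.86 to -0.52) with CD147KO-Migs. LINC00598, on the same strand, shares 4.32% of the exon bases of FOXO1 and had between 8 and 10 reads per library.

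FOXO3 (ENSG00000118689), a factor linked to stress resistance and quiescence, differed little between any libraries. It lies at 6:108559835-108684774 on the plus strand and had 1662 reads with PBS, and 1829 (normo-Migs), 1998 (hypo-Migs) and 1634 (CD147KO-Migs) with Migs. Its CPM of 49.1 (46.8 to 51.5) with PBS lay inside the range of the Mig libraries, which ran from 46.6 (44.4 to 48.9) with CD147KO-Migs to 52.9 (50.6 to 55.4) with normo-Migs. The pseudogene FOXO3B had 88 reads with PBS, and 112 (normo-Migs), 185 (hypo-Migs) and 103 (CD147KO-Migs) with Migs. It is a near copy of FOXO3, so the division of reads between them is uncertain.

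Because FPKM is scaled by gene length, the factors can be compared with each other on that scale. With FOXO6, a family member outside the 10 genes, the factors summed to an FPKM of 12.1 with PBS and 17.2 to 18.5 with Migs. FOXO4 made up 14.4% of the sum with PBS, 36.5% in the normo-Migs library, 37.6% for hypo-Migs and 41.4% for CD147KO-Migs. FOXO3 made up 51.3% with PBS and 34.5% to 38.6% with Migs, and FOXO1 27.0% with PBS and 11.7% to 13.6% with Migs. FOXO3 was thus the most abundant FOXO RNA with PBS, and FOXO4 with CD147KO-Migs. Between FOXO3 and FOXO4 the counting intervals overlapped with normo-Migs, at FPKM 6.89 and 6.52, and with hypo-Migs, at 6.39 and 6.97.

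**Figure D1:**
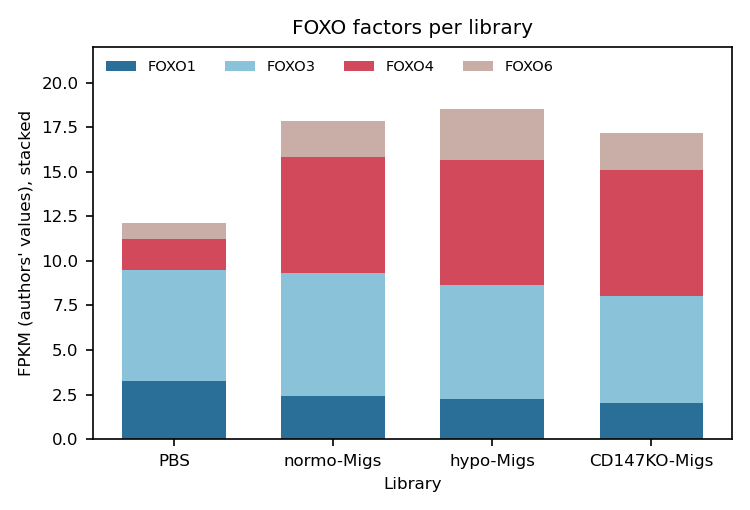
Stacked bars of the authors' FPKM of FOXO1, FOXO3, FOXO4 and FOXO6 (y axis) in the 4 libraries (x axis), 1 library per bar and no error bars. FOXO4 (red) is 1.74 with PBS and 6.52 to 7.11 with Migs, and FOXO1 (dark blue) is highest with PBS at 3.28.

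TXNIP was the most abundant of the 10 genes with PBS and the 1 gene among them past the fold downward against PBS. TXNIP (ENSG00000265972) encodes thioredoxin-interacting protein, which binds thioredoxin, limits glucose uptake and is known to be induced by glucose. It lies at 1:145992435-145996600 on the minus strand, with no other gene overlapping it. It had 7388 reads with PBS, and 1749 (normo-Migs), 2049 (hypo-Migs) and 1796 (CD147KO-Migs) with Migs. The CPM of 218 (213 to 223) with PBS stood above 50.6 (48.3 to 53.0), 50.9 (48.7 to 53.1) and 51.2 (48.9 to 53.7) in the same order. Against PBS, TXNIP had a log2 fold change of -2.06 with normo-Migs (-2.14 to -1.98), -2.07 with hypo-Migs (-2.14 to -2.00) and -2.06 with CD147KO-Migs (-2.14 to -1.99). Among the Mig libraries the highest and lowest TMM-scaled levels of TXNIP differed 1.01-fold, whereas the median of this ratio was 1.11 over the 12293 genes with a mean of 100 reads or more. This was the smallest ratio of the 10 genes, the largest being 1.23. Many of the 12293 genes had fewer reads than TXNIP, and counting error widens their ratio. No set matched for reads was compared.

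FOXO proteins bind a DNA element with the letters GTAAACA, or TGTTTAC on the opposite strand. In the promoter windows of RefSeq (GRCh38.p14, 250 bases before and 50 after each start), all 10 genes had at least 1 window, 18 in all. The element was found for TXNIP and FOXO4, both of which were past the fold against PBS, in opposite directions. It was not found for SESN3 and KLF6, which were also past the fold. Of the 27305 genes with a window, 4.19% held it. It was in 2 of the 18 windows of the 10 genes and in 3.42% of all windows. The TXNIP match starts 124 bases before the RefSeq start, and the 250 bases upstream are shown with the element in capitals, read along the minus strand at chr1:145996580-145996829.
TXNIP: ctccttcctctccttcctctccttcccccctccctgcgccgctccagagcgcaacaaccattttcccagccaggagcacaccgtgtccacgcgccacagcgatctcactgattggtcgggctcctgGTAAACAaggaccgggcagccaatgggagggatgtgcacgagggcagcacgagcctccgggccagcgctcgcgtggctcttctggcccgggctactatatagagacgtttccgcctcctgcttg

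The FOXO4 match lies 23 bases after its RefSeq start, at chrX:71095874-71095880 on the plus strand, and is shown within the stretch chrX:71095863-71095891. This RefSeq start lies before the GENCODE start of the gene given above.
FOXO4: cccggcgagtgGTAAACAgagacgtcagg
A second element, the insulin response element with the letters CAAAACA or TGTTTTG, was searched for after the sequences had been seen. It was found for IRS2 alone among the 10 genes, in the orientation TGTTTTG, 40 bases before the RefSeq start at chr13:109786617-109786623 on the minus strand, and for 6.05% of all genes with a window. It is shown within the stretch chr13:109786606-109786634.
IRS2: gagtcacatgtTGTTTTGctcttcttagt
A match is a description of letters and not a measured binding site, and the absence of a match says only that these letters are not in these windows.

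IRS2 (ENSG00000185950), the adaptor that carries the insulin signal to PI3K, was lower with Migs than with PBS, short of the fold. It lies at 13:109752698-109786568 on the minus strand. It had 3536 reads with PBS, and 2447 (normo-Migs), 2891 (hypo-Migs) and 2675 (CD147KO-Migs) with Migs, and its CPM was 104 (101 to 108), 70.8 (68.0 to 73.7), 71.8 (69.2 to 74.4) and 76.3 (73.5 to 79.3) in this order. The log2 fold change against PBS was -0.51 with normo-Migs (-0.59 to -0.44), -0.51 with hypo-Migs (-0.58 to -0.44) and -0.42 with CD147KO-Migs (-0.50 to -0.35). Its paralog IRS1, the other main insulin receptor substrate, stood on the opposite side, with 186 reads with PBS and 894 to 1050 with Migs, and log2 fold changes of 2.23 to 2.34 against PBS.

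The sestrins SESN1 and SESN3, which restrain mTORC1 and support antioxidant defence, differed in their pattern. SESN3 (ENSG00000149212, 11:95165513-95232541, minus strand) had 18 reads with PBS, and 256 (normo-Migs), 265 (hypo-Migs) and 258 (CD147KO-Migs) with Migs. Its CPM was 0.531 (0.336 to 0.840) with PBS and 7.41 (6.55 to 8.37), 6.58 (5.83 to 7.42) and 7.36 (6.52 to 8.32) with Migs in the same order. This was the largest fold of the 10 genes, with a log2 fold change against PBS of 3.71 with normo-Migs (3.16 to 4.63), 3.53 with hypo-Migs (2.97 to 4.44) and 3.68 with CD147KO-Migs (3.13 to 4.60). On the scale of log2(FPKM + 1), which shrinks low genes, its difference was 0.63 to 0.70 and so below the fold. SESN3 was also the least abundant of the 10 in every library, at an FPKM of 0.0492 with PBS and 0.619 to 0.704 with Migs. The antisense gene AP000787.1 shares 0.880% of its exon bases and had 4 reads or fewer per library.

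SESN1 (ENSG00000080546, 6:108986437-109094819, minus strand) had 572 reads with PBS, and 549 (normo-Migs), 749 (hypo-Migs) and 695 (CD147KO-Migs) with Migs. The CPM of PBS, 16.9 (15.6 to 18.3), lay inside the range of the Mig libraries, from 15.9 (14.6 to 17.3) with normo-Migs to 19.8 (18.4 to 21.4) with CD147KO-Migs. SESN1 had the widest spread of the 10 genes among the Mig libraries, 1.23-fold. The antisense gene AL390208.1 shares 7.09% of its exon bases and had 6 reads or fewer per library, and the handling of strands in the counting is not given in the sources used here. The third sestrin, SESN2, had log2 fold changes of -0.13 to 0.09 against PBS.

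KLF6 (ENSG00000067082), a zinc finger transcription factor described as a tumour suppressor in HCC, was past the fold upward in all 3 pairs with PBS. It lies at 10:3775996-3785281 on the minus strand with no overlapping gene. It had 712 reads with PBS, and 1799 (normo-Migs), 2499 (hypo-Migs) and 2068 (CD147KO-Migs) with Migs. Its CPM was 21.0 (19.5 to 22.6) with PBS, 52.1 (49.7 to 54.5) with normo-Migs, 62.0 (59.6 to 64.5) with hypo-Migs and 59.0 (56.5 to 61.6) with CD147KO-Migs. The log2 fold change against PBS was 1.35 with normo-Migs (1.23 to 1.48), 1.59 with hypo-Migs (1.47 to 1.72) and 1.51 with CD147KO-Migs (1.39 to 1.64).

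CITED2 (ENSG00000164442), a coactivator that competes with HIF-1α for CBP and p300, was higher with Migs, short of the fold. It lies at 6:139371807-139374620 on the minus strand and had 1764 reads with PBS, and 2334 (normo-Migs), 2647 (hypo-Migs) and 2518 (CD147KO-Migs) with Migs. Its CPM was 52.1 (49.7 to 54.6) with PBS and between 65.7 (63.2 to 68.3) and 71.8 (69.1 to 74.7) with Migs, and the log2 fold change against PBS ran from 0.37 to 0.49. CITED2 was the most abundant of the 10 genes in each Mig library, at an FPKM of 25.8 to 28.1, and came after TXNIP with PBS.

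CCNG2 (ENSG00000138764), an unconventional cyclin that goes with growth arrest, showed little difference. It lies at 4:77157151-77433388 on the plus strand and had 1040 reads with PBS, and 983 (normo-Migs), 1238 (hypo-Migs) and 936 (CD147KO-Migs) with Migs. The CPM was 30.7 in both the PBS and the hypo-Migs library, 28.4 with normo-Migs and 26.7 with CD147KO-Migs. Its paralog CCNG1 had log2 fold changes of 0.58 to 0.78 against PBS.

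Set in order by FPKM, the 10 genes ran with PBS from TXNIP (58.9) through CITED2, IRS2, FOXO3, CCNG2, KLF6, FOXO1, SESN1 and FOXO4 to SESN3. Of these neighbours, KLF6 and FOXO1, and FOXO1 and SESN1, did not differ beyond their counting intervals. In the Mig libraries CITED2 came before TXNIP, and IRS2 and KLF6 came next. KLF6 stood after CCNG2 with PBS and before both FOXO3 and FOXO4 in each Mig library. With Migs the neighbours whose intervals overlapped were IRS2 and KLF6 with normo-Migs and CD147KO-Migs, CCNG2 and SESN1 with hypo-Migs and CD147KO-Migs, and FOXO3 and FOXO4 as given above.

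In each pair of a Mig library with PBS, 4 of the 10 genes were past the fold, 3 of them upward (FOXO4, SESN3 and KLF6) and TXNIP downward, the same genes in all 3 pairs. The pairs share the PBS library. Over all genes tested, 30.2% were past the fold for normo-Migs, 30.5% for hypo-Migs, and CD147KO-Migs gave 30.3%, so the share of the 10 genes was near the background. Among the 12293 genes with a mean of 100 reads or more, a set that includes all 10, these shares were 17.6%, 18.1% and 18.2%, below the 4 of 10, with no test of that difference. Past the fold upward in all 3 pairs were 14.2% of all genes tested, and downward in all 3 pairs 7.10%, or 11.2% and 4.16% of the genes with a mean of 100 reads or more. The PBS library lay outside the range of the Mig libraries for 7 of the 10 genes, compared with 82.0% of all genes tested and 89.1% of the genes with a mean of 100 reads or more. FOXO3, SESN1 and CCNG2 lay inside. The median log2 fold change of the 10 genes against PBS was 0.06 for normo-Migs and 0.11 for both hypo-Migs and CD147KO-Migs, beside 0.03, 0.04 and 0.03 over all genes tested. The 7 targets had no common direction against PBS, with 2 past the fold upward and 1 downward. When an adjusted p of 0.05 was also asked for, DESeq2 with the 4 libraries taken as replicates called 0 of the 10 genes and 0 of all 19895, and edgeR's exact test with an assumed coefficient of variation of 0.4 called 1, SESN3, in each pair, beside 7.72%, 8.21% and 7.92% of all genes tested, in the order normo-Migs, hypo-Migs and CD147KO-Migs.

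**Figure D2:**
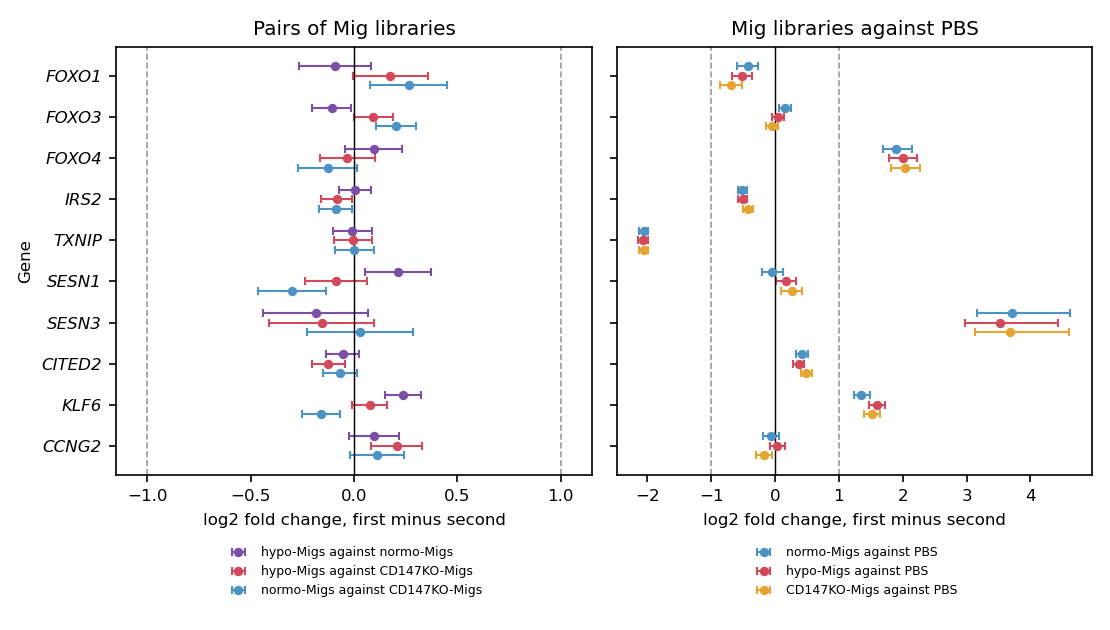
log2 fold changes (x axis, first library minus second) of the 10 genes (y axis), with exact 95% intervals of the ratio of reads. Among the Mig libraries (left) all points lie between -0.30 and 0.26, and against PBS (right) SESN3, FOXO4, KLF6 and TXNIP pass the dashed lines at 1 and -1 in all 3 pairs.

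The comparison of hypo-Migs with normo-Migs asks whether the oxygen supply of the cells that released the Migs mattered to these RNAs. It reads so only if the label of normo-Migs holds. None of the 10 genes was past the fold (0 of 10), whereas 9.34% of all genes tested and 0.236% of the genes with a mean of 100 reads or more were. The log2 fold changes ran from -0.19 for SESN3 (-0.44 to 0.07) to 0.24 for KLF6 (0.15 to 0.33), with 5 genes higher and 5 lower. The interval excluded 0 for 3 genes, as it did for 34.9% of all genes tested and for 40.9% of those with a mean of 100 reads or more. These were KLF6 and SESN1 (0.21, 0.05 to 0.37), higher with hypo-Migs, and FOXO3 (-0.11, -0.20 to -0.02), lower. For FOXO4 (0.10, -0.04 to 0.23) and FOXO1 (-0.09, -0.26 to 0.08) a difference was not detectable at this depth, and neither was one for TXNIP (-0.01, -0.10 to 0.08) or IRS2 (0.00, -0.07 to 0.08).

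The comparison of hypo-Migs with CD147KO-Migs asks whether CD147 in the cells that released the Migs mattered. Again 0 of the 10 genes were past the fold, beside 9.12% of all genes tested and 0.195% of those with a mean of 100 reads or more. The range was -0.16 for SESN3 (-0.41 to 0.09) to 0.21 for CCNG2 (0.08 to 0.33). The interval excluded 0 for CCNG2, higher with hypo-Migs, and for CITED2 (-0.12, -0.20 to -0.05) and IRS2 (-0.08, -0.16 to -0.01), lower, which is 3 of 10 genes beside 35.0% of all genes tested and 40.7% of those with a mean of 100 reads or more. None of the factors had an interval that excluded 0, with FOXO1 at 0.17 (-0.01 to 0.36), FOXO3 at 0.09 (-0.00 to 0.19) and FOXO4 at -0.03 (-0.17 to 0.10).

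Normo-Migs and CD147KO-Migs differ in both oxygen and CD147, and gave 5 genes whose interval excluded 0, beside 34.5% of all genes tested and 40.5% of those with a mean of 100 reads or more. FOXO1 (0.26, 0.08 to 0.45) and FOXO3 (0.20, 0.11 to 0.30) were higher with normo-Migs. SESN1 (-0.30, -0.46 to -0.14), KLF6 (-0.16, -0.25 to -0.07) and IRS2 (-0.09, -0.17 to -0.01) were lower. None was past the fold (0 of 10, beside 9.69% of all genes tested and 0.236% of those with a mean of 100 reads or more). The 3 pairs of Mig libraries share libraries, so these values are not independent of each other.

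**Figure D3:**
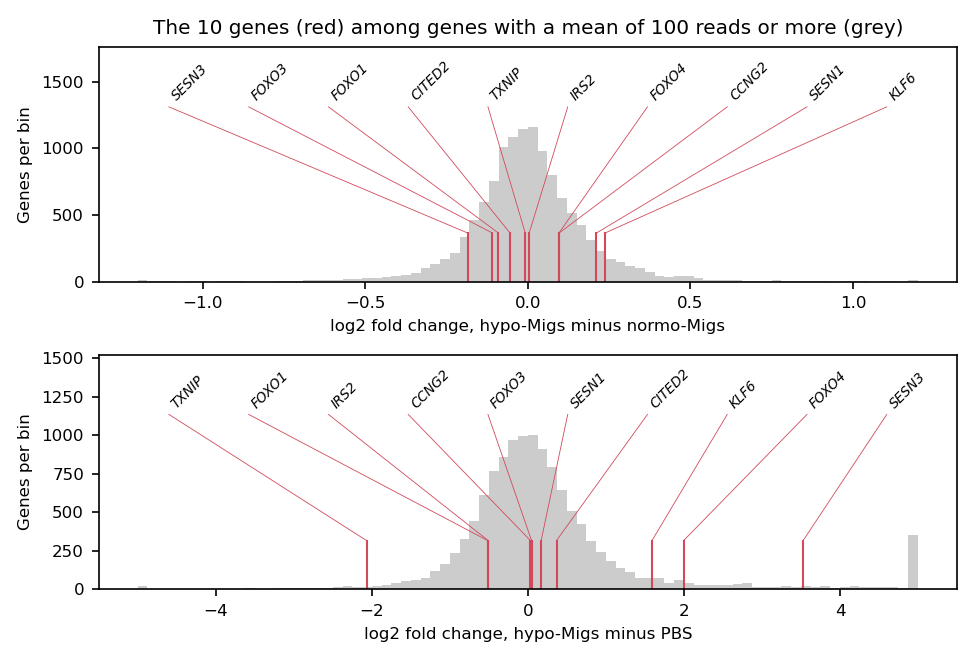
Histograms of the log2 fold change of the 12293 genes with a mean of 100 reads or more (grey, genes per bin, values beyond the axis in the outermost bins), with the 10 genes as red lines. Upper panel, hypo-Migs minus normo-Migs, where the 10 genes lie from -0.19 to 0.24; lower panel, hypo-Migs minus PBS, where they run from -2.07 for TXNIP to 3.53 for SESN3.

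A wider list of 39 other FOXO targets, 34 of them tested, was set beside the 10 genes. Of these, 13 were past the fold upward in all 3 pairs with PBS (38.2%, beside 14.2% of all genes tested), and 0 were past it downward in all 3 (7.10% of all genes tested). The list's median log2 fold change against PBS was 0.76 for normo-Migs, 0.70 for hypo-Migs, and CD147KO-Migs gave 0.69. The median was 0.03 to 0.04 over all genes tested. The 13 were TNFSF10, PDK4, SELENOP, CCND2, PCK1, IGFBP1, GABARAPL1, FBXO32, PPARGC1A, BTG1, BCL2L11, ERBB3 and CDKN1A. CCND2 is known as a gene that FOXO factors repress, and its call rests on 0 reads with PBS and 8 to 18 with Migs. The call of PCK1 rests on 2 reads with PBS and 12 to 18 with Migs. The list includes SESN2, a paralog of members, and was chosen with earlier results of these data known. It was not split by whether FOXO factors activate or repress a gene, so its median may mix both.

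PDK4, which blocks pyruvate entry into the mitochondrial oxidation of glucose, had 824 reads with PBS, and 13845 (normo-Migs), 18085 (hypo-Migs) and 13540 (CD147KO-Migs) with Migs. Its log2 fold change against PBS was 4.09 with normo-Migs (3.99 to 4.19), 4.24 with hypo-Migs (4.14 to 4.34) and 4.01 with CD147KO-Migs (3.92 to 4.12). PDK4 was also higher with hypo-Migs than with normo-Migs (0.15, 0.12 to 0.18) and CD147KO-Migs (0.22, 0.19 to 0.25), short of the fold. TNFSF10, the death ligand TRAIL, had 7 reads with PBS and 979, 1275 and 1155 with normo-Migs, hypo-Migs and CD147KO-Migs, and for hypo-Migs against PBS its log2 fold change was 6.94 (6.24 to 8.61). SELENOP, a selenium carrier made by liver, had 3 reads with PBS, and 53 (normo-Migs), 96 (hypo-Migs) and 77 (CD147KO-Migs) with Migs, and its log2 fold change for hypo-Migs against PBS was 4.10 (3.19 to 7.09). Of the 34 targets, 21 had values above 0 in all 3 pairs with PBS and 9 had values below 0 in all 3. The lowest with hypo-Migs was RBL2, a pocket protein that restrains the cell cycle, at -0.91 (-1.01 to -0.81).

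For hypo-Migs against normo-Migs, 1 of the 34 targets was past the fold, beside 9.34% of all genes tested. This was CCND2 with 8 against 18 reads, named after its value was seen. The median of the list was 0.06, beside 0.00 over all genes tested. The interval excluded 0 for 18 of the 34, 13 higher with hypo-Migs and 5 lower. It did so for 34.9% of all genes tested and 40.9% of those with a mean of 100 reads or more. Against CD147KO-Migs, 0 of the 34 were past the fold, beside 9.12% of all genes tested, and the median was 0.00. There the interval excluded 0 for 12 of the 34, 7 higher with hypo-Migs and 5 lower, beside 35.0% of all genes tested. BBC3, named after its value was seen, had 192 reads with hypo-Migs and 282 with CD147KO-Migs, a CPM of 4.77 and 8.05. Its CPM with normo-Migs (4.60) was near that with hypo-Migs, and its CPM with PBS (7.76) near that with CD147KO-Migs.

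The insulin, PI3K and AKT genes upstream of FOXO, with INSR and RICTOR also in the list of other targets, numbered 24, all tested. Of these, 6 were past the fold upward in all 3 pairs with PBS (25.0%, beside 14.2% of all genes tested) and 0 downward, and PIK3CD, INPP4B and IRS1 were among them. PIK3CD, a catalytic PI3K subunit, had 70 reads with PBS and 1570 to 1940 with Migs, with log2 fold changes of 4.47 to 4.58. INPP4B, a phosphatase that opposes PI3K, had 9 reads with PBS and 102 to 141 with Migs. The kinases AKT1 and AKT2 had an FPKM of 10.0 to 11.3 and 7.82 to 10.9 over the 4 libraries. For hypo-Migs against normo-Migs, 2 of the 24 genes were past the fold, beside 9.34% of all genes tested. These were SGK2 (15 against 4 reads) and PIK3R2 (12 against 4), named after their values were seen. Against CD147KO-Migs 0 of the 24 were, beside 9.12% of all genes tested.

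Among 22 regulators that bind or modify FOXO proteins, 1 was past the fold downward in all 3 pairs with PBS and 0 upward, beside 7.10% and 14.2% of all genes tested. This was SFN, the 14-3-3 protein sigma, with 12856 reads with PBS and 3665 to 3955 with Migs, and log2 fold changes of -1.96 to -1.72. For hypo-Migs against normo-Migs and against CD147KO-Migs, 0 of the 22 were past the fold. Over all genes tested, 9.34% and 9.12% were.

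Paralogs of the 10 genes numbered 12, of which 11 were tested. Of these, 4 were past the fold in all 3 pairs with PBS, 3 upward and 1 downward. Over all genes tested, 14.2% were past it upward and 7.10% downward in all 3. The 3 upward were FOXO6, CITED1 and IRS1, which is also counted above among the insulin, PI3K and AKT genes. CITED1 had 0 reads with PBS and 8 to 15 with Migs. ARRDC4, an α-arrestin paralog of TXNIP, was the 1 downward, with 311 reads with PBS, and 42 (normo-Migs), 40 (hypo-Migs) and 41 (CD147KO-Migs) with Migs. Its log2 fold change was -2.81 with normo-Migs (-3.37 to -2.40), -3.11 with hypo-Migs (-3.69 to -2.70) and -2.89 with CD147KO-Migs (-3.45 to -2.47). FOXO6, a family member best known in brain, was upward, with 73 reads with PBS, and 167 (normo-Migs), 280 (hypo-Migs) and 174 (CD147KO-Migs) with Migs. It was the member of the FOXO family with the largest difference between hypo-Migs and normo-Migs (0.50, 0.23 to 0.79), and between hypo-Migs and CD147KO-Migs (0.49, 0.21 to 0.77).

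**Figure D4:**
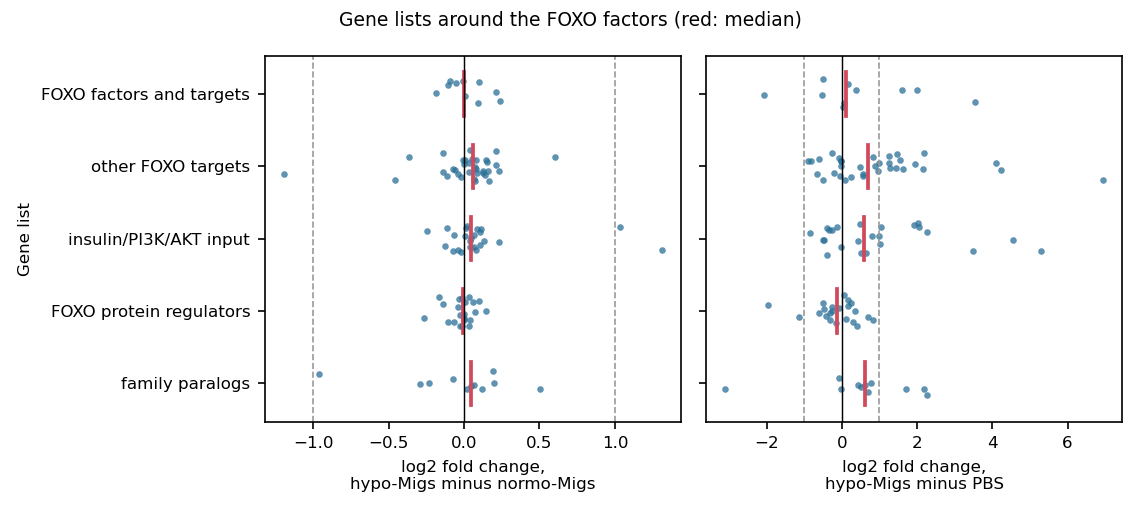
log2 fold changes (x axis) of the tested genes of each list (y axis, 1 point per gene, spread vertically for visibility), for hypo-Migs minus normo-Migs (left) and hypo-Migs minus PBS (right), with red bars at the medians and dashed lines at 1 and -1. The other FOXO targets have a median of 0.70 against PBS and 0.06 against normo-Migs, and the 10 genes have medians of 0.11 and -0.00.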

How the data were processed

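The authors deposited raw counts of reads per gene. A second deposited table holds FPKM, in which the authors divided the reads by gene length and by a total per library. The submitters' processing notes name CASAVA 1.8, fastp, HISAT2 2.0.5, featureCounts 1.5.0-p3 and build hg38, without roles, and the handling of strands is not given in the sources used here. All 58735 genes had the coordinates of GENCODE release 29. For 15 genes the names differed between the tables, so genes were matched by identifier.

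TMM scaling in edgeR 4.0.16 (R 4.3.3) ran over the genes that reached 10 reads in any library, with a prior count of 2 for log2 fold changes. Exact intervals of a ratio came from the conditional binomial distribution and those of a CPM from Wilson's method (scipy 1.17.1). A count of 0 allows up to 3 reads, a CPM of 0.0745 to 0.0885. The calculation was tested on simulated data. Quasi-likelihood tests have no residual degrees of freedom here, so a fold of 1 on the log2 scale, the fold criterion of the study, replaced a test. The alternatives used DESeq2 1.42.0, edgeR's exact test with assumed variation, an exact binomial test, other scalings and filters, and the FPKM table.

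The members and lists were chosen with earlier results of these data known. Named beside the 10 genes were, in each list, those past the fold in a pair of Mig libraries with a mean of 50 reads or more, and up to 3 in each direction with the largest change in all pairs with PBS. Other genes were named as paralogs, as part of a count or for their role, after their values were seen. Some listed genes are not reported here by name. SOD2 has 2 identifiers, of which ENSG00000112096 was used.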

Additional observations from a re-analysis of the deposited data

How the results depend on the processing

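No paired analysis was possible because each condition had 1 library. For the same reason no library could be left out within a condition. Over 69 recomputed counts of the 10 genes past the fold, 63 stayed within 1.5 times the value reported. These counts include the pairs of Mig libraries, where 0 was set beside 0. The 6 counts that moved were all in pairs with PBS. When an adjusted p of 0.05 or less was also required, with an assumed coefficient of variation of 0.4 between replicates (edgeR's exact test), 1 gene, SESN3, passed in each of the 3 pairs with PBS, beside 7.72% to 8.21% of all genes tested. With DESeq2 over the 4 libraries taken as replicates, 0 genes passed in each of these pairs, and 0 of all 19895 genes did. The exact binomial test gave 4 genes in each, beside 27.2% to 28.3% of all genes tested. The pairs of Mig libraries gave 0 of the 10 genes under every alternative, including scaling over the 3 Mig libraries alone, and there the exact binomial test called 4.90% to 5.04% of all genes tested. Alternatives that only added an adjusted p to the same fold could give nothing but 0 there, so their result carries no information. The other scalings and filters and a fold of 0.5 could have given more. Of 450 recomputed log2 fold changes of the 10 genes, 440 lay inside their interval and 0 of those past the fold changed sign. The 10 others all came from log2(FPKM + 1), which shrinks low genes and put SESN3 at 0.63 to 0.70 against PBS, below the fold.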
